A study of Mus musculus with 42 samples.

Results

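Untreated bone-marrow-derived macrophages (BMDM) from mice labelled KO for Irf5 were compared with those from mice labelled WT before any stimulus had been applied. The comparison took the 3 libraries of KO Control 0 h and the 3 libraries of WT Control 0 h, chosen by the group names in the header of the count table, so that it covered 6 of the 42 libraries of the series. The other 36 libraries were Control cells kept for 2 or 24 h and cells given palmitate or bacterial lipopolysaccharide for the same times. The question the comparison addresses is how the resting transcriptome differed between the libraries labelled KO and WT. Other differences between these libraries cannot be told apart from the genotype in this comparison.

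BMDM are macrophages grown in culture from marrow precursors, here from femurs and tibias over 8 to 10 days in medium conditioned by L929 cells, which supply the macrophage growth factor CSF1. In the KO mice, floxed Irf5 alleles (C57BL/6-Irf5tm1Ppr/J) were cut by a Cre recombinase expressed from the lysozyme 2 locus (LysM-Cre, B6.129P2-Lyz2tm1(cre)Ifo/J), so that deletion takes place in myeloid cells as they mature and the Cre insertion itself sits in Lyz2. The WT mice were littermates, and all mice were males 7 to 10 weeks old. Both groups were grown in the same medium and received no palmitate and no lipopolysaccharide. Whether the 3 libraries of a group came from separate mice is not given in the sources used here, so that the spread between libraries may be technical. The p-values rest on a spread estimated over all 42 libraries in 14 groups, not on that of the 6 compared here alone.

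IRF5 is a transcription factor that is held inactive in resting macrophages and enters the nucleus after Toll-like receptor signalling, where it drives inflammatory cytokine genes and interferon responses. Resting BMDM are scavenger cells that carry receptors for lipoproteins, bacteria and dying cells, degrade what they take up in lysosomes and recycle its iron and lipid. They hold little MHC class II until interferon gamma or related signals induce the class II transactivator CIITA.

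The targeted gene was not lower in the libraries labelled KO. Irf5 (chromosome 6, 29526625 to 29541871, plus strand, mm10) stood at 209.5, 230.3 and 222 CPM in the 3 WT libraries and at 307, 279 and 328 CPM in the 3 labelled KO, where CPM is the usual level scaled to library size, here after adjustment by the trimmed mean of M values (TMM). Each library labelled KO was above each WT library, and the log2 fold change, given here and below with its SE, was 0.47 ± 0.06 (adjusted p = 9.12e-08). Adjusted p-values throughout are from edgeR's quasi-likelihood test after Benjamini-Hochberg adjustment over the 11624 genes tested. The mean level was higher in the libraries labelled KO in 7 of 7 conditions of the series. The counts are totals per gene, so that reads of the deleted exons cannot be set apart from those of the remaining transcript, and whether strand was used in counting is not stated. Tnpo3, which overlaps Irf5 on the other strand, had 62.6, 56.5 and 55.3 CPM in WT and 59.7, 60.1 and 64 CPM in KO (log2 fold change 0.08 ± 0.09, adjusted p = 0.639). The label therefore could not be checked through the level of Irf5, and KO below means the libraries labelled KO.

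The Cre locus and its neighbour did differ. Lyz2, which encodes the abundant lysozyme of macrophages, lay between 10146 and 10238 CPM in WT and at 7365, 5377 and 8766 CPM in KO libraries 1 to 3 (log2 fold change -0.51 ± 0.09, adjusted p = 1.62e-04). The 2 KO libraries with the higher values were above each of the other 18 KO libraries of the series, which lay between 4682 and 6160 CPM. Lyz1, the intestinal lysozyme gene next to Lyz2, had 9.95, 8.84 and 9.92 CPM in WT against 43.4, 33.9 and 47.1 CPM in KO, and it was the gene with the smallest adjusted p of the whole comparison (log2 fold change 2.11 ± 0.17, adjusted p = 1.07e-12). Lyz1 and Lyz2 are close paralogs, and reads may have been split between them in counting.

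The 6 libraries held between 4979807 and 7743442 counts, and 3 counts corresponded to 0.387 to 0.602 CPM. Macrophage identity was clear in all 6, with counts of Csf1r between 9131 and 12804 and of Adgre1 between 6195 and 11508. Across genes, the correlation of log2 CPM was 0.982 to 0.988 between libraries of a group and 0.970 to 0.978 between groups. No pair of replicates agreed within sampling noise. Library 2 of KO was the KO library nearest to WT for 827 of the 1448 called genes (57.1%), against 22.4% for library 1 and 20.4% for library 3, so that several of the results below are given with its value.

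Of 11624 genes tested, 1448 were called at an adjusted p under 0.05 (12.5%), 744 of them higher in KO (6.4%) and 704 lower (6.06%). The number of calls was 731 with KO library 3 omitted, 870 with KO library 1 omitted and 902 with WT library 3 omitted. The changes were small for most genes. Those called higher had a median log2 fold change of 0.50, and 161 of them (21.6%) exceeded 1, while the median size among those called lower was 0.35 and 35 (4.97%) exceeded 1. For 51 of the higher genes each WT library held at most 3 counts, and for 20 of them WT held none, so that a fitted fold for these has no firm size. The groups did not overlap for 28% of all genes tested, with KO above WT for 14.2% and below it for 13.9%. Permuting 3 libraries against 3 gives no exact p below 0.1 for a gene taken alone, and the calls rest on the model fitted over all genes.

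**Figure D1:**
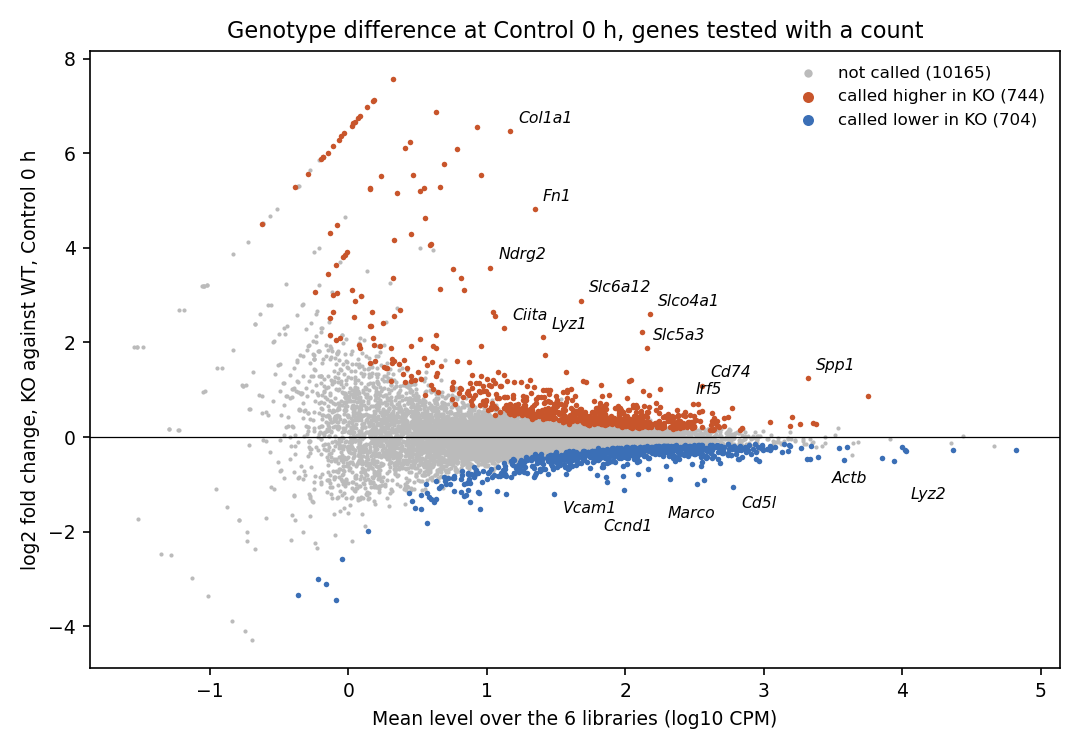
Log2 fold change of KO against WT at Control 0 h (vertical axis) against the mean level over the 6 libraries (horizontal axis, log10 CPM), 1 point per gene tested that had a count in these libraries. The 744 genes called higher reach further from 0 than the 704 called lower, and genes of the extracellular matrix such as Col1a1 and Fn1 are among the highest points.

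Some transporters that load cells with organic osmolytes were among the strongest differences. Cells in hypertonic surroundings accumulate inositol, betaine, sorbitol and amino acids through a programme driven by the transcription factor NFAT5. Slc5a3, the sodium-coupled inositol transporter, had 51.2, 42.6 and 45.9 CPM in WT and 256, 109.9 and 289 CPM in KO. All 3 KO libraries were above all other 39 libraries in which it was measured, since the other 36 reached 63.4 CPM at most, and KO library 2 was the lowest of the 3 (log2 fold change 2.23 ± 0.19, adjusted p = 7.63e-12). Slc6a12, the betaine transporter, stood at 12.3, 11.8 and 9.92 CPM in WT and 93.2, 31.2 and 126 CPM in KO (log2 fold change 2.88 ± 0.27, adjusted p = 1.25e-10). The other 36 libraries ranged from 10.9 to 109 CPM, so that KO library 3 alone was above all of them. Without KO library 2 the log2 fold change of Slc6a12 was 3.30, and without KO library 3 it was 2.46.

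Lists of genes were described by the members that passed the filter on low counts, 17 of 19 for osmolyte transport and the hypertonic response. Of these 17, 6 were called higher and 2 lower (35.3% and 11.8%, against 6.4% and 6.06% of all genes). Their median log2 fold change was 0.33 against 0.00 over all genes. The other 4 that rose were Slc38a2, a transporter of small neutral amino acids (log2 fold change 0.84 ± 0.12), the kinase gene Sgk1 (0.59 ± 0.11), Nfat5 itself (0.57 ± 0.12) and Akr1b3, the aldose reductase that makes sorbitol (0.38 ± 0.11). Nfat5 had 81.8, 72 and 71.8 CPM in WT and 116, 106 and 112 CPM in KO, without overlap, and here KO library 2 was close to its group. Akr1b3 did overlap, as its value in KO library 2 was 69.5 CPM against 67.7 to 73.1 CPM in WT. The 2 that fell belong to the control of chloride cotransport. Wnk1, a kinase that regulates chloride cotransporters, changed by -0.27 ± 0.06 (adjusted p = 7.08e-04). Slc12a2, the sodium, potassium and chloride cotransporter, changed by -0.46 ± 0.16, with a call lost with DESeq2 and in each of the 6 fits that omitted a library. Among the 9 not called was Slc6a6, another osmolyte transporter (-0.09 ± 0.04, adjusted p = 0.196). The summed level of the list was 3059 to 3191 CPM in WT and 3055 to 3352 CPM in KO, so that the groups overlapped. Mrps6, a mitochondrial ribosomal protein gene that shares its position and strand on chromosome 16 with Slc5a3, was higher too (1.17 ± 0.22, adjusted p = 2.01e-04), and reads of the shared stretch could be assigned to either gene.

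Other transport and membrane genes followed the same order of libraries. Slco4a1, an organic anion transporter, had 45.2, 49.7 and 32.9 CPM in WT and 294, 117 and 358 CPM in KO (log2 fold change 2.60 ± 0.22, adjusted p = 7.63e-12). Fxyd2, the gamma subunit that tunes the sodium and potassium pump, rose from 63, 59.7 and 61 CPM to 253, 152 and 277 CPM (1.89 ± 0.18, adjusted p = 2.29e-10). In both genes KO library 2 lay between WT and the other KO libraries. Of the 3 SLCO transporters tested, Slco3a1 was also higher (0.88 ± 0.24) and Slco2b1 was lower (-1.19 ± 0.27). Leaving out KO library 3 or WT library 2 removed the call of Slco3a1.

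Further genes named by their small adjusted p or their size had diverse roles. Spp1, which encodes the secreted phosphoprotein osteopontin, rose from 1226, 1276 and 1199 CPM to 2969, 1582 and 4247 CPM (log2 fold change 1.25 ± 0.15, adjusted p = 1.11e-07). Ndrg2, a member of the NDRG family of stress-responsive genes, had 1.45, 2.21 and 1.19 CPM in WT and 19, 8.56 and 30.8 CPM in KO, a log2 fold change of 3.58 ± 0.40. Shb, an adaptor of tyrosine kinase signalling, was higher by 1.74 ± 0.19, with 15, 11.2 and 10.2 CPM in WT and 39.5, 24.7 and 56.3 CPM in KO. Each of these 3 genes separated the groups without overlap, and in each the lowest KO value was that of library 2. Lpin2, a phosphatidate phosphatase, and Spen, a nuclear corepressor, rose by less (0.58 ± 0.07 and 0.50 ± 0.06). Lrrc27, with 3.98, 4.42 and 3.04 CPM in WT and 11.4, 18 and 13.5 CPM in KO, differed by 1.92 ± 0.23 (adjusted p = 4.69e-08), and for this gene KO library 2 was the highest.

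**Figure D2:**
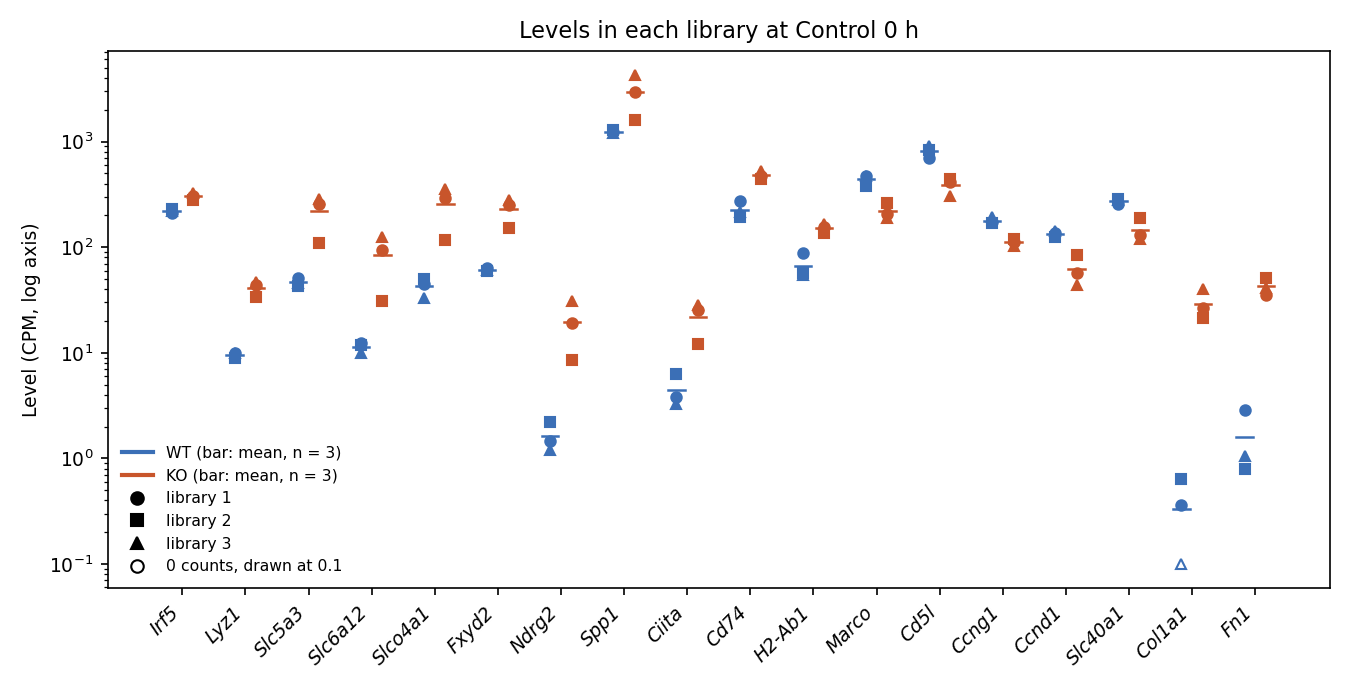
Level of 18 named genes in each of the 3 WT and 3 KO libraries at Control 0 h (vertical axis, CPM on a log axis). Symbols mark the library, bars the group mean and the open symbol a library without counts. KO library 2 (squares) lies between WT and the other KO libraries for Slc5a3, Slc6a12, Slco4a1, Fxyd2, Ndrg2, Spp1 and Ciita. It does so for Irf5, Lyz1, Cd74 and H2-Ab1 too, where it is nearer to the next KO library than to the highest WT library.

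Genes of MHC class II presentation were among those called higher in KO. CIITA switches on the class II chains and the invariant chain Cd74 by binding factors on a shared promoter module of S, X and Y boxes. Ciita had 3.80, 6.32 and 3.31 CPM in WT and 25.5, 12.2 and 28.4 CPM in KO (log2 fold change 2.30 ± 0.31, adjusted p = 6.09e-07). Cd74 stood at 275, 193 and 214 CPM in WT and 476, 443 and 528 CPM in KO (1.09 ± 0.15, adjusted p = 8.84e-07). H2-Ab1, the beta chain of the I-A molecule, had 88.8, 56.5 and 54.6 CPM against 156, 138 and 167 CPM (1.21 ± 0.16, adjusted p = 2.76e-07). In all 3 genes each KO library was above each WT library, although WT library 1 reached 88.8 CPM for H2-Ab1. H2-Aa and H2-Eb1 rose by 1.15 ± 0.18 and 1.18 ± 0.18 on the log2 scale. Thus 5 of 12 members tested (41.7%, against 6.4% of all genes) were called higher and none lower, with a median of 1.07 over the 12. The calls of Ciita, Cd74, H2-Ab1 and H2-Eb1 held in each of the 6 fits that omitted a library. The 7 not called were Ctss, Ifi30, the peptide-loading genes H2-DMa, H2-DMb1 and H2-DMb2, and H2-Oa and H2-Ob.

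The promoters of the class II chains are shown because these genes moved together and a table of RefSeq promoters (build GRCm38.p6, 250 bases before to 50 after the annotated start) holds the windows of H2-Aa and H2-Eb1. H2-Aa is on chr17:34287774-34288073, minus strand, and H2-Eb1 on chr17:34305617-34305916, plus strand. Capitals mark the letters CTGATTGG of the Y box, searched on both strands after the class II genes had been seen.
H2-Aa: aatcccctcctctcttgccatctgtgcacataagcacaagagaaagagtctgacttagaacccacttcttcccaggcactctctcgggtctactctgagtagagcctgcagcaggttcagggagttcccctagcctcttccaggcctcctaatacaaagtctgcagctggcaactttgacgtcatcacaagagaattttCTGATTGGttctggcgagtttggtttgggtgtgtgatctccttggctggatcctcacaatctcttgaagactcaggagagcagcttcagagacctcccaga
H2-Eb1: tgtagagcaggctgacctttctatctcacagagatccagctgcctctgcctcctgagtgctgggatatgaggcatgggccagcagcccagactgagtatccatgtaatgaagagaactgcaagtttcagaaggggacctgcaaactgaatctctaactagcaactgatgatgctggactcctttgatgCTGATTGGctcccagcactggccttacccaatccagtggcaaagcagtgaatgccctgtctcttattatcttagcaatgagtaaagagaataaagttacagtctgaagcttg
The letters begin 51 bases before the annotated start in H2-Aa and 62 bases before it in H2-Eb1. Of the 9 class II presentation genes with a promoter in the table, 3 held them (H2-Aa, H2-Eb1 and H2-Oa), against 6.61% of the promoters of 8900 genes tested. Among genes called higher the share was 4.12% (24 of 582), and among those called lower 6.12% (32 of 523). A match is a description of the letters and no evidence of binding.

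Interferon-stimulated genes gave small fold changes, most of them upward. Of 57 tested, 44 were fitted above 0 and 13 below, and the median log2 fold change was 0.24. The test called 7 higher (12.3%, against 6.4% of all genes) and none lower. They were Slfn8 (0.58 ± 0.11), Helz2 (0.57 ± 0.12), Ifitm3 (0.67 ± 0.17), Eif2ak2 (0.33 ± 0.09), Ly6e (0.42 ± 0.12), Stat2 (0.41 ± 0.12) and Oasl2 (0.53 ± 0.16). Eif2ak2 encodes the kinase PKR, which senses double-stranded RNA, and Stat2 a subunit of the interferon-activated transcription factor. Stat2 had 40.7, 48.3 and 45.1 CPM in WT and 55.4, 53.9 and 69.6 CPM in KO, and each KO library was above each WT library. The call of Ifitm3, whose KO library 2 lay within the range of WT, was lost without KO library 3, and that of Eif2ak2 without WT library 3. In the IRF family and its binding partners, Irf5 was the only one of 11 genes tested that passed. Irf7, induced by interferon, had 32.6, 43.4 and 23.9 CPM in WT and 42.2, 39.7 and 36.5 CPM in KO, and Irf8, a factor of the myeloid lineage, 230.3, 274 and 249 and 244, 238 and 266 CPM, both with overlapping groups. The letters GAAA followed, after any 2 bases, by GAAA again, as in the interferon response element, were present on either strand in 22 of 44 promoters of interferon-stimulated genes, in 5.50% of those of genes called higher (32 of 582), in 3.82% of those of genes called lower (20 of 523) and in 4.04% of all 8900.

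Sensors and cytokines gave calls in both directions. Among 30 Toll-like receptors, co-receptors and adaptors, 5 were higher (16.7%, against 6.4% of all genes) and 4 lower (13.3%, against 6.06%). Tlr7, a receptor for single-stranded RNA, had 193, 184 and 178 CPM in WT and 269.9, 212 and 272 CPM in KO (0.44 ± 0.08, adjusted p = 1.73e-04), and Cd14, the co-receptor for lipopolysaccharide, 99.5, 85.6 and 79.6 against 139.6, 101 and 172 CPM (0.64 ± 0.13). Lbp, the plasma protein that hands lipopolysaccharide to CD14, fell by 1.82 on the log2 scale (SE 0.37), with 4.71, 4.42 and 8.20 CPM in WT and 1.77, 1.71 and 1.44 CPM in KO. Tlr13 and Cd180 were lower by at most 0.32. Of 20 cytokine genes 3 were higher (15%) and 2 lower (10%). Csf1, the macrophage growth factor, had counts of 5, 1 and 6 in WT and 11, 26 and 31 in KO (ratio of scaled sums 6.67, counting interval 3.58 to 13.5). Il1b had 1 count in each WT library and 6, 3 and 14 in KO (ratio 9.03, counting interval 2.73 to 47.0), and its call was lost without KO library 3 or any 1 of the WT libraries. Of 26 chemokines and their receptors 1 was higher (3.85%) and 4 were lower (15.4%, against 6.06% of all genes). Cx3cr1, the fractalkine receptor, rose (1.21 ± 0.25). Pf4, Ccl2 and Ccr3 were among the lower ones, each with a call lost without KO library 3 or WT library 3. The inflammasome list had 5 of 20 members higher (25%) and 1 lower (5%), with Gsdmd, the pore-forming protein of pyroptosis, at 0.50 ± 0.11.

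Several scavenger receptors and surface proteins of resident macrophages were called lower in KO. Of 22 tested, 8 were called lower (36.4%, against 6.06% of all genes), 1 was called higher and 13 were not called, with a median of -0.18. Marco, a receptor for bacteria and particles, had 475, 376 and 469 CPM in WT and 204, 264 and 191 CPM in KO (-1.0 ± 0.10, adjusted p = 5.03e-10), the smallest adjusted p among lower genes. Cd5l, a secreted scavenger protein that blocks macrophage apoptosis, fell from 700.3, 827 and 901 CPM to 412, 446 and 307 CPM (-1.06 ± 0.13, adjusted p = 1.36e-07). The mannose receptor Mrc1 (-0.54 ± 0.10), the lipid receptor Cd36 (-0.46 ± 0.08), Cd68 (-0.47 ± 0.07), Adgre1 (-0.31 ± 0.05), Msr1 (-0.19 ± 0.06) and Mertk (-0.24 ± 0.08) were lower as well. In Marco, Cd5l, Mrc1 and Cd36 the groups were apart, and for all 4 the KO value nearest to WT was that of library 2. Siglec1, the sialoadhesin of macrophages, was the one that was higher (0.35 ± 0.11), a call lost with DESeq2 and without KO library 1 or 3 or WT library 1 or 3.

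Of 15 complement genes 6 were lower and 1 was higher, while 6.06% and 6.4% of all genes were. The 3 chains of C1q, the opening component of the classical pathway, moved alike, with log2 fold changes of -0.31 ± 0.08 for C1qa, -0.32 ± 0.07 for C1qb and -0.35 ± 0.07 for C1qc. C1qc had 894, 938 and 902 CPM in WT and 689, 752 and 701 CPM in KO, a difference larger than the spread in either group. Cfp, properdin of the alternative pathway, was lower by more (-0.62 ± 0.11), while C3 was higher (0.37 ± 0.10), a call lost without KO library 1 or WT library 2. Of the 6 Fc gamma receptor genes tested, Fcgr3, the low-affinity activating receptor, was lower (-0.36 ± 0.07, adjusted p = 3.70e-04). Fcgr4 and Fcgrt were lower and the inhibitory receptor Fcgr2b higher, each with a call that was lost without at least 3 single libraries.

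Cell-cycle regulators and p53 targets were among the genes lower in KO with the smallest adjusted p. Ccng1, a cyclin that p53 induces, had 174, 168 and 194 CPM in WT and 113, 118 and 102 CPM in KO (-0.68 ± 0.07, adjusted p = 2.40e-09). Cdkn1a, the p53 target that encodes the cyclin kinase inhibitor p21, had 92.3, 73.6 and 73.3 CPM in WT and 43.2, 53.1 and 40.1 CPM in KO (-0.80 ± 0.10, adjusted p = 3.43e-07). Over the 32 p53 targets tested 4 were lower and 4 higher (12.5% each, against 6.06% and 6.4% of all genes). The higher p53 targets included Fas, the death receptor (1.04 ± 0.25), and Dram1, a lysosomal inducer of autophagy (0.71 ± 0.11). Ccnd1, the cyclin that growth factors induce in G1, fell from 136, 124 and 143 CPM to 57.1, 84.9 and 43.4 CPM (-1.11 ± 0.16, adjusted p = 1.48e-06). Of 46 genes of the cell cycle and DNA replication 6 were lower (13%, against 6.06% of all genes) and 1 higher. The lower ones were Ccnd1, Pcna (-0.39 ± 0.08), Mcm6, Mcm4, Ccne2 and E2f1, which act at entry into and during S phase. The call of Ccne2 was lost without the filter on low counts and in 4 of the 6 fits that omitted a library (KO 1, KO 3, WT 1 and WT 3), and that of Mcm6 with KO library 3 or WT library 3 omitted. The higher one was Mki67, a marker of cycling cells (0.31 ± 0.10), a call lost with DESeq2 and without KO library 1, KO library 3 or WT library 2.

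Genes of iron and lipid handling that passed the test were mostly lower. Slc40a1, the iron exporter ferroportin, had 254, 286 and 278 CPM in WT and 131, 189.9 and 119 CPM in KO (-0.89 ± 0.12, adjusted p = 3.63e-07), and Ncoa4, which delivers ferritin to lysosomes, 150, 139.9 and 148 against 98.5, 110.4 and 101 CPM (-0.50 ± 0.07, adjusted p = 5.60e-07). With Blvrb, Tfrc and Slc11a1, 5 of 17 iron genes were lower (29.4%) and none higher, while 6.06% of all genes were called lower. Of 27 genes of LXR signalling, cholesterol efflux and lipid droplets, 7 were lower (25.9%), among them Abca1, the cholesterol exporter (-0.33 ± 0.06), and Pltp, the phospholipid transfer protein (-0.43 ± 0.08). Apoc2 was the exception (0.76 ± 0.20, lost without KO library 3). Of 23 fatty acid oxidation genes 5 were lower (21.7%) and none higher, led by the electron carrier subunit Etfb (-0.67 ± 0.12) and the hydratase Echs1 (-0.49 ± 0.12).

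Among 78 nuclear-encoded subunits of oxidative phosphorylation 7 were lower (8.97%, near the 6.06% of all genes) and none higher. The list as a whole lay slightly lower, with 69 members fitted below 0 and a median log2 fold change of -0.14. Its summed level was 5322 to 5553 CPM in WT and 4843 to 5079 CPM in KO. None of the 8 subunits of the mitochondrial genome tested was called. All 8 were fitted below 0 (median -0.18), and the sums of that list overlapped between the groups. Ghitm, an inner membrane protein that the study examines and one of 6 genes it singled out, had 111, 96.5 and 102 CPM in WT and 135, 124 and 148 CPM in KO (0.40 ± 0.07, adjusted p = 1.29e-04). Of the other 5, Lrrc27 was higher and Fnip2, a folliculin partner, lower (-0.22 ± 0.06, a call lost without KO library 1 or 3), while Atf5, Syce2 and Abcg1 did not pass. The study chose these 6 partly for genotype differences in this series, so that their directions here are not independent evidence. The NRF2 targets of antioxidant defence had 5 of 24 members higher (20.8%, against 6.4% of all genes) and none lower. The list as a whole did not rise, with a median log2 fold change of -0.03 and 13 members fitted below 0. Its summed level was 38347 ± 1133 CPM in WT and 35944 ± 475 CPM in KO (SD, n = 3). Among the higher members were Gclc, the rate-limiting enzyme of glutathione synthesis, with 93.9, 89.2 and 92.2 CPM in WT and 164, 120.2 and 145 CPM in KO (0.64 ± 0.12), and Nqo1 (0.60 ± 0.19).

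Genes of protein synthesis and secretion gave small fold changes. Of 24 endoplasmic reticulum chaperones and unfolded protein response genes, 11 were lower (45.8%, against 6.06% of all genes), 1 was higher and 12 were not called. Calr, the calcium-binding chaperone calreticulin, had 1118, 1027 and 1090 CPM in WT and 758, 858 and 678 CPM in KO (-0.50 ± 0.07, adjusted p = 7.86e-07), and Hspa5, the chaperone BiP, 571, 526 and 566 against 435, 491 and 399 CPM (-0.33 ± 0.07). Xbp1, a transcription factor of this response, was the exception (0.30 ± 0.09), and its call did not survive the loss of KO library 3, WT library 1 or WT library 2. Of 81 cytosolic ribosomal protein genes 28 were lower (34.6%), none was higher and 53 were not called, with a median log2 fold change of -0.23. Rps16, for example, had 206, 213 and 221 CPM in WT and 158, 146 and 181 CPM in KO (-0.40 ± 0.10). Ribosomal protein genes have many processed pseudogenes, and histone genes near-identical copies, between which reads may have been divided in counting. Replication-dependent histone genes had 11 of 43 lower (25.6%) and none higher, led by the linker histone Hist1h1a (-0.77 ± 0.15). Lysosomal hydrolases and proton pump subunits had 15 of 56 lower (26.8%), including the proteases Ctsb (-0.29 ± 0.05) and Ctsd (-0.21 ± 0.05), and 1 higher, Ctsk, the collagen-degrading protease, which fell short of the threshold in 3 of the 6 fits that left out a library.

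Of 42 genes of actin and its binding proteins, a list written after the lower genes had been seen, 20 were lower (47.6%, against 6.06% of all genes), 2 were higher and 20 were not called, and the choice of this list means that its count supports nothing. Actb itself had 8451, 7973 and 8274 CPM in WT and 6021, 6408 and 5823 CPM in KO (-0.44 ± 0.06, adjusted p = 6.09e-07), and Cotl1, which binds filamentous actin, 745, 750.1 and 754 CPM in WT and 541, 593 and 500.5 CPM in KO (-0.46 ± 0.06). Fscn1, the bundling protein fascin, went the other way from a low level, with counts of 10, 15 and 10 in WT and 29, 47 and 36 in KO (1.89 ± 0.34). Pmp22, a tetraspan membrane protein, fell from 97.7, 98.2 and 95.1 CPM to 40.6, 61.6 and 48.6 CPM (-0.94 ± 0.12, adjusted p = 2.36e-07). Among the largest falls were also Vcam1, an adhesion molecule (-1.20 ± 0.21), the vault RNA Vaultrc5 (-1.21 ± 0.25) and Gm15564 (-1.15 ± 0.22), the last annotated as an antisense RNA.

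**Figure D3:**
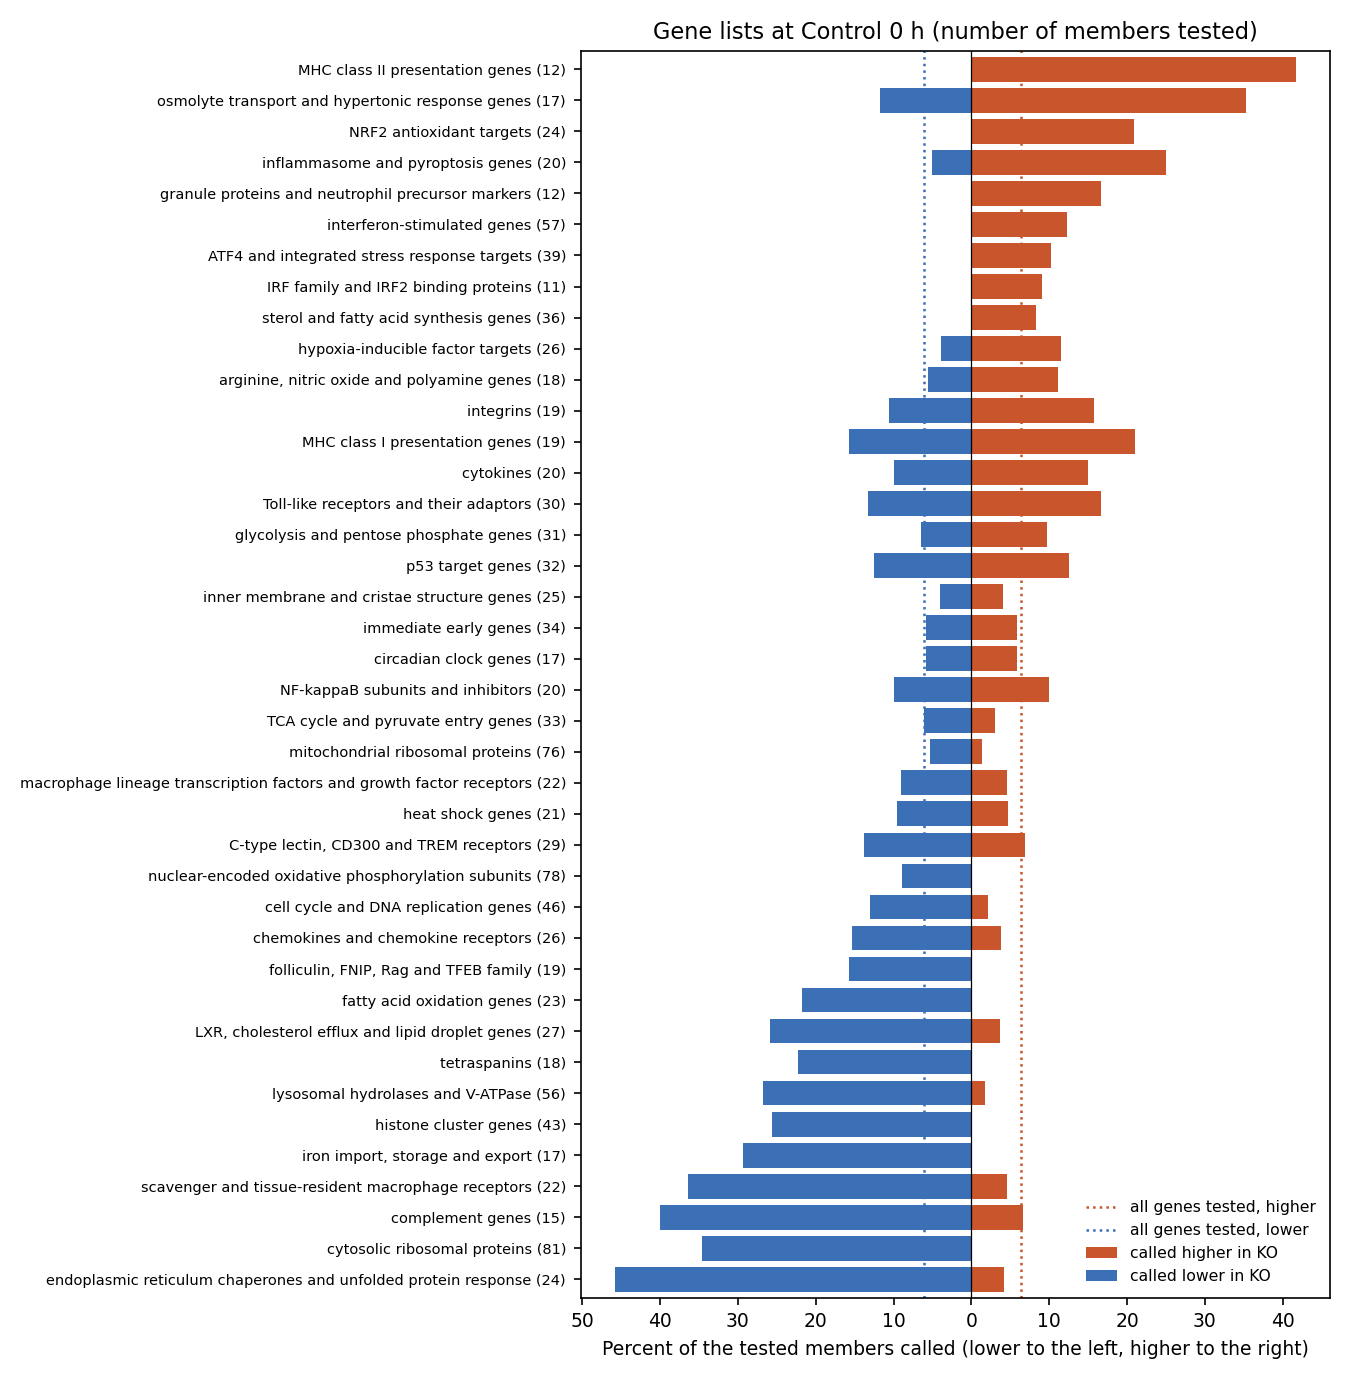
Percent of the tested members of each gene list called higher (right, red) or lower (left, blue) in KO at Control 0 h, for lists with at least 10 members tested, leaving out lists written after the values at 0 h had been seen (such as actin). Dotted lines mark the share of all genes tested, 6.4% higher and 6.06% lower. MHC class II (41.7%) and osmolyte genes (35.3%) have the highest shares on the right among the lists plotted, and endoplasmic reticulum chaperones (45.8%), complement genes and scavenger receptors (36.4%) the highest on the left.

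Genes of the extracellular matrix were among those with the largest fold changes. Fibrillar collagens are typical products of fibroblasts. Col1a1, a chain of type I collagen, had 2, 4 and 0 counts in WT libraries and 134, 125 and 223 in KO, a ratio of the scaled sums of 94.6 with a counting interval of 43.1 to 259. Fn1, fibronectin, had 16, 5 and 8 counts in WT and 178, 301 and 230 in KO (ratio 28.8, interval 19.9 to 43.3). Acta2, the smooth muscle actin of myofibroblasts, had 18, 24 and 22 counts in WT and 72, 106 and 145 in KO. Ccn1, a matrix protein induced by stretch and serum, had none in WT and 7, 22 and 17 in KO, a ratio whose exact counting interval starts at 14.1, with a call lost without KO library 3 or any 1 of the WT libraries. The fitted calls of Col1a1 (adjusted p = 0.0283) and Fn1 (adjusted p = 0.0166) were lost without WT library 2 or 3, and that of Col1a1 also when WT library 1 or KO library 3 was left out.

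Of the 9 fibroblast and stromal markers, Col1a1, Col1a2, Col3a1 and Col6a2 passed the filter on low counts, which they did through the libraries where they are high, so that the number of them called is no evidence. Col1a2 had 3, 0 and 0 counts in WT and 59, 92 and 126 in KO, Col3a1 0, 0 and 3 and 47, 25 and 33, and Col6a2 0, 0 and 2 and 19, 22 and 32. The summed level of all 9 was 0.631 to 0.926 CPM in WT and 51.6, 46.2 and 75.2 CPM in KO libraries 1 to 3. Dcn, Lum, Lepr, Pdgfra and Cxcl12, which mark fibroblasts and marrow stroma more narrowly, had at most 3 counts in any of the 6 libraries. The same markers were present in Control cells at later times, with sums of 75.3 to 123 CPM in KO at 2 h and 41.5 to 139 CPM at 24 h, against 1.74 to 60.7 CPM and 3.26 to 47.2 CPM in WT. Over the other 36 libraries the sum ranged from 0.145 to 327 CPM, so that WT at 0 h was near the low end and KO at 0 h within the range. In bulk RNA, more cells of a type and more RNA per cell cannot be told apart, and the part of stromal RNA in the other differences was not tested.

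Markers of other cell types moved less. The summed level of monocyte markers was 144 to 159 CPM in WT and 266 to 382 CPM in KO, and most of it was F13a1, coagulation factor XIII, with 118, 121 and 115 CPM in WT and 235, 179 and 301 CPM in KO (1.01 ± 0.13). Fn1, described above with the matrix genes, is on this list too and added 2.90, 0.789 and 1.06 CPM in WT and 34.9, 51.5 and 41.4 CPM in KO. Ly6c2, the defining marker of inflammatory monocytes, had 15, 0 and 1 counts in WT and 6, 3 and 1 in KO. Granule protein genes summed to 246 to 253 CPM in WT and 310 to 324 CPM in KO, with Lyz1 and Ltf as the called members of 12 tested, of which Ltf lost its call with DESeq2 and whenever a library was left out. The 9 macrophage markers other than Lyz2 summed to 5805 to 6006 CPM in WT and 5449 to 5961 CPM in KO, so that the groups overlapped. Among them Cd68, Adgre1, Aif1 and Mertk were lower and Csf1r and Cd14 higher. T and NK cell markers summed to 38.5 ± 5.51 CPM in WT and 27.3 ± 6.82 CPM in KO (SD, n = 3), apart by little, and Cd4 was the only member tested (-0.56 ± 0.15). Markers of B cells, dendritic cells, mast cells, megakaryocytes, osteoclasts and erythroid cells had overlapping sums. The part of these cell types in the results above was not tested.

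**Figure D4:**
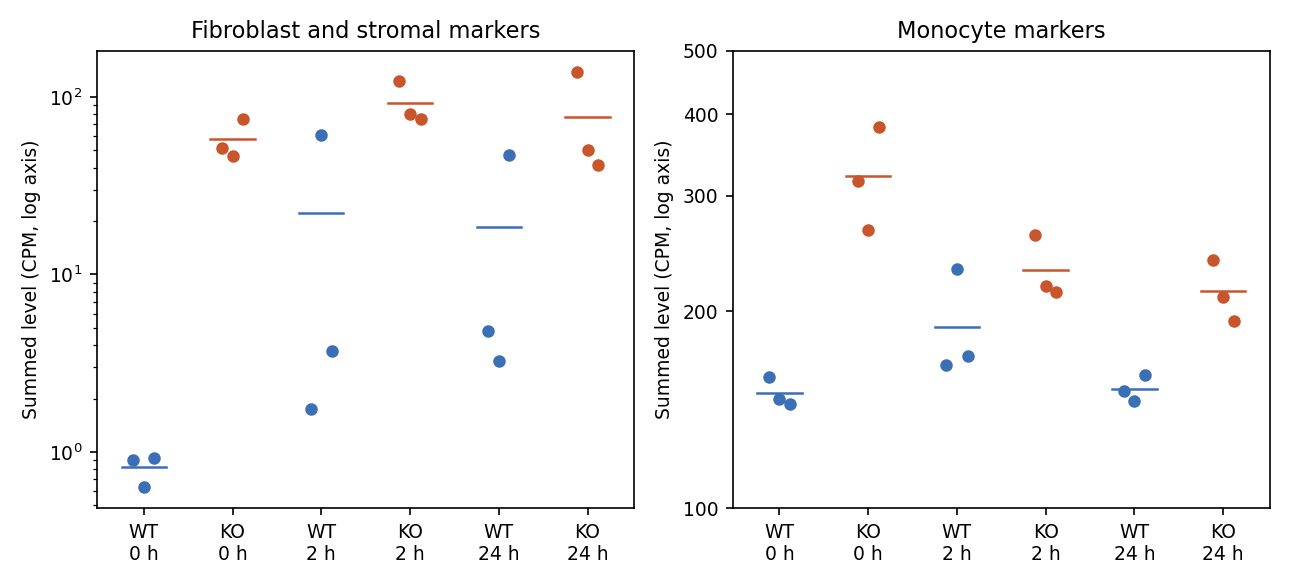
Summed level of the 9 fibroblast and stromal markers (left) and of the 9 monocyte markers (right) in each Control library (vertical axes, CPM on log axes), with bars at the group means of 3 libraries. At 0 h the WT libraries lie at 0.631 to 0.926 CPM and the KO libraries at 46.2 to 75.2 CPM for the stromal markers.

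The make-up of the libraries also differed with genotype. Genes of the mitochondrial genome took 9.98 ± 0.06% of counts in WT and 8.74 ± 0.42% in KO (SD, n = 3 each), and long noncoding RNA genes 0.558 ± 0.071% in WT and 0.957 ± 0.027% in KO. In KO the 10 most abundant genes took a smaller share (22.1 ± 0.1% against 24.2 ± 0.6%) and more genes had at least 1 count (14546 ± 28 against 13978 ± 439), although KO libraries were shallower on average. None of the 4 measures overlapped between groups, and the exact two-sided permutation p of each was 0.1, the smallest that 3 against 3 allows (0.167 after Benjamini-Hochberg adjustment over 20 measures). Genes called higher had longer exons, with a median of 6050 bases, than those called lower (4166 bases) and all tested (4487 bases). When the genes were split by exon length into 4 bins of equal size, 3.19% were called higher and 7.12% lower in the bin of the shortest, and 11% and 5.02% in that of the longest. The median log2 fold change moved from -0.08 to 0.05 between these bins at 0 h and lay between -0.02 and 0.01 in all 4 bins at 2 h and at 24 h. Ribosomal protein and histone genes, which are short, were among the lists with lower members, and the part of transcript length or RNA composition in those counts was not tested.

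Most of the difference at 0 h was not seen in Control cells of the same genotypes at later times. With the same test 57 genes were called at 2 h (0.49%; 0.232% higher and 0.258% lower) and 14 at 24 h (0.12%; 0.086% higher and 0.0344% lower). Of the 1448 genes called at 0 h, 11 were called in the same direction at 2 h (0.76% of the 0 h calls and 19.3% of the 2 h calls), 4 in the opposite direction, and 9 at 24 h (0.62% and 64.3%). Lyz1, Lyz2, Ltf, Lrrc27, Ghitm and Cd5l were called at all 3 times. Lyz1 had log2 fold changes of 2.11, 2.07 ± 0.17 and 2.14 ± 0.18 at 0, 2 and 24 h, Lrrc27 1.92, 2.19 ± 0.23 and 2.29 ± 0.22, and Cd5l -1.06, -1.0 ± 0.13 and -0.64 ± 0.13. For none of these 3 genes was the change between times called (adjusted p of at least 0.267). The median log2 fold change at later times of the genes called higher at 0 h was 0.01 at 2 h and 0.05 at 24 h, and that of the genes called lower 0.00 and -0.03.

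The change of the genotype difference with time was tested itself, as the contrast of KO against WT at 0 h minus that at the later time. It was called for 554 genes against 2 h (4.77%; 2.55% higher and 2.22% lower) and for 213 against 24 h (1.83%; 0.946% higher and 0.886% lower). With KO library 3 omitted these counts were 312 and 57, and with KO library 2 omitted 698 and 420. The count against 24 h was also 72 with KO library 1 omitted, 136 with WT library 1 omitted and 123 with WT library 3 omitted, and that against 2 h was 363 and 351 with KO library 1 or WT library 3 omitted. Both contrasts and the comparison at 0 h share the 6 libraries of 0 h. Slc5a3 had group means of 46.6 ± 4.33, 45.4 ± 2.44 and 35.2 ± 5.48 CPM in WT (SD, n = 3) and 218 ± 95.2, 33 ± 2.89 and 38 ± 14.3 CPM in KO at 0, 2 and 24 h. The groups were apart at 0 h and the genotype difference was not called at 2 or 24 h, and the differences of log2 fold change were 2.69 ± 0.29 against 2 h (adjusted p = 1.28e-08) and 2.11 ± 0.29 against 24 h (adjusted p = 1.27e-05). Fxyd2 turned direction, with 125 ± 8.76 CPM in WT and 73.2 ± 8.97 CPM in KO at 2 h (-0.77 ± 0.18, adjusted p = 0.0365), so that its difference against 2 h was 2.66 ± 0.26 (adjusted p = 1.44e-09). Siglec1 did the same, higher at 0 h and lower at 2 h (-0.70 ± 0.11, adjusted p = 2.23e-04).

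Cd74 stood at 227 ± 42.7, 345 ± 64.4 and 171 ± 12.8 CPM in WT and at 482 ± 42.6, 331 ± 55.3 and 230.5 ± 14.3 CPM in KO at 0, 2 and 24 h. Its genotype difference was larger at 0 h than at 2 h by 1.15 ± 0.21 (adjusted p = 3.88e-04), while the difference against 24 h did not pass (0.65 ± 0.21, adjusted p = 0.109). H2-Ab1 and Ciita passed against both times, with 0.98 ± 0.23 (adjusted p = 0.0159) and 1.90 ± 0.45 (adjusted p = 0.0165) against 24 h. Marco had 439.9 ± 55.8, 311 ± 20.9 and 611 ± 36.6 CPM in WT and 219.7 ± 39.1, 374 ± 20.7 and 551 ± 63.5 CPM in KO, and its difference was -1.27 ± 0.14 against 2 h and -0.85 ± 0.14 against 24 h (adjusted p = 2.56e-08 and 2.62e-04). Ccng1 (-0.85 ± 0.10 and -0.71 ± 0.10), Ccnd1 (-1.36 ± 0.22 and -1.07 ± 0.22) and Plau, the urokinase gene (-1.29 ± 0.19 and -1.0 ± 0.19), were likewise lower in KO at 0 h and not called at 2 or 24 h. The stromal genes gave no such result, as the difference for Col1a1 was 4.38 ± 2.79 against 2 h (adjusted p = 0.432).

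**Figure D5:**
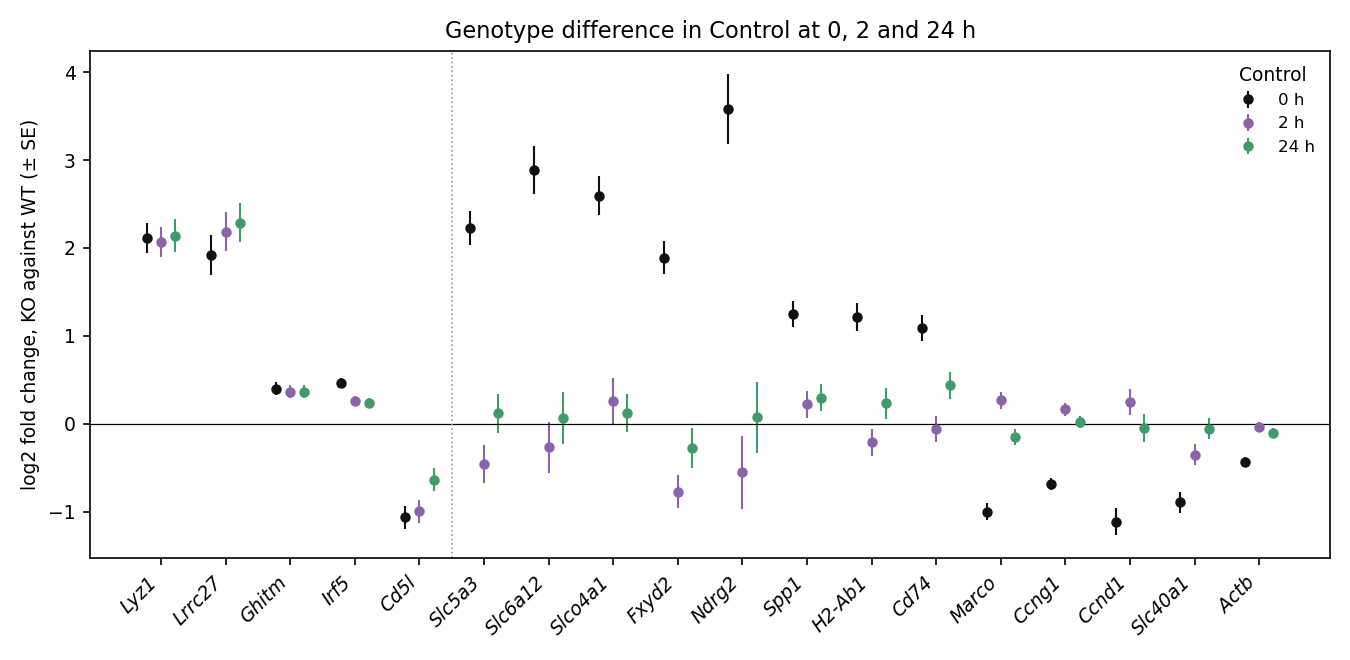
Log2 fold change of KO against WT in Control (vertical axis, bars are the SE of the fit) at 0 h (black), 2 h (purple) and 24 h (green), for genes called at 0 h. The 5 genes left of the dotted line keep their direction at all 3 times, and none of the 13 to its right is called in its 0 h direction at 2 or 24 h.

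The called genes were spread over the genome. Between 10.9% (chromosome 8) and 15.3% (chromosome 18) of the genes tested on a chromosome were called. Within 5 Mb of Irf5, 7 of 36 tested genes were called (19.4%, exact 95% binomial interval 8.19% to 36%), among them Akr1b3, Impdh1 and Flnc, and within 5 Mb of Lyz2 it was 7 of 34 (20.6%, interval 8.70% to 37.9%), among them Lyz1, Tbk1 and Irak3. Both intervals include the 12.5% of all genes, but the reading depended on the window. Within 10 Mb of Irf5, 22.7% of 66 tested genes were called, with an interval of 13.3% to 34.7% that lies above 12.5%. Within 10 Mb of Lyz2 it was 20% of 65 (interval 11.1% to 31.8%). Within 2 Mb the shares were 12.5% of 24 for Irf5 (2.66% to 32.4%) and 21.1% of 19 for Lyz2 (6.05% to 45.6%).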

How the data were processed

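Total RNA of 42 BMDM cultures was sequenced in pairs after depletion of ribosomal RNA (stranded pico-input kit). The deposited table holds raw counts per Ensembl gene, which the authors made by trimming with fastp (0.19.11) and aligning with STAR (2.7.3a) to mm10; the annotation release and the use of strand in counting are not given in the sources used here. Columns name the group only, so library numbers follow column order and carry no pairing; 0 columns of per-sample values were left unused. All 37310 genes were read, and 11624 passed edgeR's filter on low counts. The comparison at Control 0 h was a contrast in one fit over the 14 groups of 3 libraries (edgeR 4.0.16, limma 3.58.1, R 4.3.3; TMM, quasi-likelihood F test, two-sided, Benjamini-Hochberg, threshold 0.05), as were the contrasts at 2 and 24 h and their differences. DESeq2 (1.42.0), which the study used, was an alternative. On simulated counts for this comparison (11372 genes, 200 changed), 74% of 2-fold and 92% of 4-fold changes were recovered and 4.05% of calls were false. Those counts were drawn with the spread that the fit itself had estimated. The called changes in the data were mostly smaller (median log2 size 0.50 for higher and 0.35 for lower genes). The simulated shares therefore do not carry over to them.

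The genes named were Irf5, Lyz1 and Lyz2, the 10 with the smallest p and the 5 with the largest change in each direction, the 5 with the largest called change of the genotype difference in each direction and at each time, and up to 4 called members of each list in each direction; others named were chosen after their values were seen, and a few genes are not reported here. Groups, lists and tests were chosen with earlier results of these data known, and the actin list and the Y box letters after the values at 0 h had been seen. A floor of 3 counts per library is given for genes without counts; intervals on counts are exact (95%) and cover counting error only. Gene positions are from GENCODE M21 (GRCm38, the same assembly as mm10). Alternatives were RLE size factors, no filter on low counts, only the libraries of the contrast, DESeq2, the study's threshold on p and fold, and each library of Control 0 h left out.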

Additional observations from a re-analysis of the deposited data

Results flagged for a closer look

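For 25 named genes the genotype difference at Control 0 h differed from that at a later Control time in the test of the difference itself. These genes had been named for their p or size at 0 h or for this change itself, so that their number is no evidence. Genes named only as members of a list, such as H2-Ab1 and Ciita, are left out here. Values are log2 fold changes of KO against WT at 0 h minus those at the later time, given for 2 h and then for 24 h, and every pair shares the libraries of 0 h. Among transport genes Slc5a3 gave 2.69 and 2.11, Slc6a12 3.15 and 2.82, Slco4a1 2.34 and 2.47, and Fxyd2 2.66 and 2.16. Ndrg2 gave 4.13 and 3.51, Shb 1.82 and 1.49, and Spp1 1.03 and 0.95. Lpin2 and Spen, with smaller differences at 0 h, gave 0.77 and 0.68, and 0.67 and 0.49.

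On the lower side, the growth regulators Ccng1, Cdkn1a and Ccnd1 gave -0.85 and -0.71, -0.71 and -0.68, and -1.36 and -1.07. Marco gave -1.27 and -0.85, Plau -1.29 and -1.0, Pmp22 -1.02 and -0.90, and Nrp1, a neuropilin receptor, -0.49 and -0.48. The iron genes Slc40a1 and Ncoa4 gave -0.54 and -0.84, and -0.50 and -0.45. Actb gave -0.40 and -0.33, Cotl1 -0.36 and -0.34, Rhob, a small GTPase, -0.53 and -0.60, and the dynein light chain gene Dynlt3 -0.70 and -0.41. Calr gave -0.48 and -0.54. The noncoding Vaultrc5 and Gm15564 gave -2.06 and -1.89, and -1.21 and -1.40.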

How the results depend on the processing

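No paired analysis was possible because the columns of the count table name the group and no replicate number. The count of genes called at 0 h, 1448, stayed within 1.5 times that value with RLE size factors, without the filter on low counts, in a fit of the 6 libraries alone and with DESeq2. It ranged from 731 without KO library 3 to 1374 without KO library 2 (higher 408 to 768, lower 323 to 606), with 870 when KO library 1 was omitted and 902 when WT library 3 was. At the study's threshold, an unadjusted p under 0.05 with a log2 fold change beyond 1, it was 384 (305 higher, 79 lower) and with DESeq2, an alternative added after the data had been seen, 383 (304 and 79). The change of the genotype difference against 2 h was called for 554 genes and ranged from 312 to 698 with a library left out (higher 174 to 386, lower 138 to 312). Against 24 h it was called for 213 genes, for 367 without the filter (233 higher), for 409 in a fit of its own libraries (237 higher, 172 lower), and for 57 to 420 with a library left out (higher 33 to 240, lower 24 to 180), both lowest counts without KO library 3 and both highest without KO library 2. Of 2106 checks on the 211 named genes that were called, 377 lost the call and none turned direction, and 106 genes kept the call in each. Atf5, not called, turned from slightly below 0 to a log2 fold change of 0.0031 with RLE size factors and 0.0033 with DESeq2, and ranged from -0.16 to 0.11 with a library left out. The causes were not tested. RLE size factors moved the median log2 fold change of all genes by 0.0083.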

Other observations

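Several groups of genes not described above held calls at Control 0 h. Of 18 tetraspanins 4 were lower (22.2%, against 6.06% of all genes) and none higher, led by Cd81 with 92.1, 84.2 and 102 CPM in WT and 52.6, 52.4 and 49.1 CPM in KO (-0.85 ± 0.12), which was also called lower at 24 h. Of 19 integrins Itgb3 (1.06 ± 0.27), Itga2b and Itga8 were higher (15.8%, against 6.4% of all genes), Itga9 (-0.72 ± 0.15) and Itgb1 lower (10.5%), and the calls of Itga2b, Itga8 and Itgb1 were each lost in at least 2 of the 6 fits that omitted a library. Of 19 genes of MHC class I presentation 4 were higher (21.1%), led by the class I transactivator Nlrc5 (0.49 ± 0.12), and 3 were lower (15.8%), which were the chaperones Calr, Canx and Pdia3.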
